A study of Mus musculus with 6 samples.

Results

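The 32 genes described here encode the machinery of fatty acid oxidation together with the nuclear receptor PPAR-alpha, its partners and a set of its known targets. They were taken by symbol from the deposited expression table, which holds 55487 genes, and all 32 were found. Each of the 32 had a mean above the expression filter (mean log2 RPKM above -2), as did 15563 genes in all. RPKM scales reads by gene length and library size. The length used counts all exonic bases of a gene, which can exceed the transcript made in the tissue. Levels of different genes are therefore only roughly comparable. Whole small intestine was profiled by RNA-seq in 3 libraries from Lgr5-2A-DTR mice (DTR) and 3 libraries from wild-type mice (WT). In the DTR mice the diphtheria toxin receptor is produced from the Lgr5 locus, the gene that marks crypt base stem cells, so the toxin is directed at Lgr5-positive cells. All mice were adult (over 8 weeks) and of the C57BL/6 strain, and both genotypes received the toxin at 20 µg per kg daily for 4 days and were killed 6 h after the final dose. The comparison of DTR with WT asks how transcripts of the whole tissue differ after the loss of Lgr5-positive cells.

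Fatty acids enter mitochondria as carnitine esters through the carnitine shuttle and are then shortened in repeated rounds of dehydrogenation, hydration, further dehydrogenation and thiolysis. Very long and branched chains are first shortened in peroxisomes. PPAR-alpha is a fatty acid sensor that pairs with RXR on DNA and drives many of these genes in liver and in the absorptive cells of the small intestine during fasting and fat feeding.

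Reads assigned to genes numbered 61404574 to 64972540 in the DTR libraries and 62092869 to 76596766 in the WT libraries. Lgr5 had 22, 0 and 34 reads in DTR replicates 1, 2 and 3, against 315, 254 and 229 reads in WT replicates 1, 2 and 3. Values of 3 libraries are given in this order throughout. Enterocyte markers summed to 19780, 33490 and 17880 RPKM in the DTR libraries, against 17890, 18720 and 20700 RPKM in the WT libraries. By limma 3 of 8 were lower in DTR (37.5%, beside 8.74% of all tested genes) and none was higher. The median log2 change over the 8 was -0.46. The sum gives most weight to the most abundant genes, so it need not follow the list as a whole. The genotypes also differed in sex-linked transcripts. Xist was at 20.1 to 21.1 RPKM in every DTR library and at 0.0146 to 0.0279 RPKM in the WT libraries, whereas Ddx3y had 0 reads in the DTR libraries and 8.45 to 9.31 RPKM in the WT libraries. The genotype and the sex-linked pattern cannot be told apart in any comparison below. DTR replicate 2 stood apart from the other DTR libraries in markers of fat cells. Adipoq, an adipocyte hormone, was at 0.180, 12.7 and 0.222 RPKM in the DTR libraries, against 3.02, 0.189 and 0.153 RPKM in the WT libraries. Cfd, another adipocyte product, was at 3.13, 85.8 and 0.663 RPKM in the DTR libraries, against 18.2, 0.922 and 1.14 RPKM in the WT libraries. Both were highest in DTR replicate 2 and next highest in WT replicate 1. Pancreatic acinar markers summed to 22210, 7123 and 10430 RPKM in the DTR libraries, against 10180, 28740 and 9881 RPKM in the WT libraries, so their ranges overlapped. T cell markers summed to 13.3, 5.17 and 13.7 RPKM in the DTR libraries, against 30.2, 33.3 and 44.9 RPKM in the WT libraries. Of these 5 markers, 4 were lower in DTR by limma (80%, beside 8.74% of all tested genes). Hepatocyte markers summed to at most 0.358 RPKM in any library, with Fgb at 0 throughout. In RNA from whole tissue, fewer cells of a type and less RNA per cell cannot be told apart.

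Members of the pathway moved in both directions. Angptl4, Acot1, Acot2, Ppara, Eci2, Acadl and Acaa2 were higher in DTR, which is 7 of 32 members or 21.9%, beside 9.54% of all tested genes. Ppargc1a, Acaa1a, Acaa1b, Cpt2 and Decr1 were lower in DTR, which is 5 of 32 or 15.6%, beside 8.74% of all tested genes. The remaining 20 members did not pass the threshold (limma, Benjamini-Hochberg adjusted p under 0.05 over 15563 genes). Of the 7 higher members, 5 exceeded 2-fold, and of the 5 lower members only Ppargc1a did. The values of 10 members lay above every WT library in all DTR libraries (31.2%, against 25.1% of all tested genes) and those of 9 lay below every WT library (28.1%, against 22.6%). The median log2 change was 0.02 over the members and 0.03 over all tested genes, with 16 members positive and 16 negative.

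**Figure D1:**
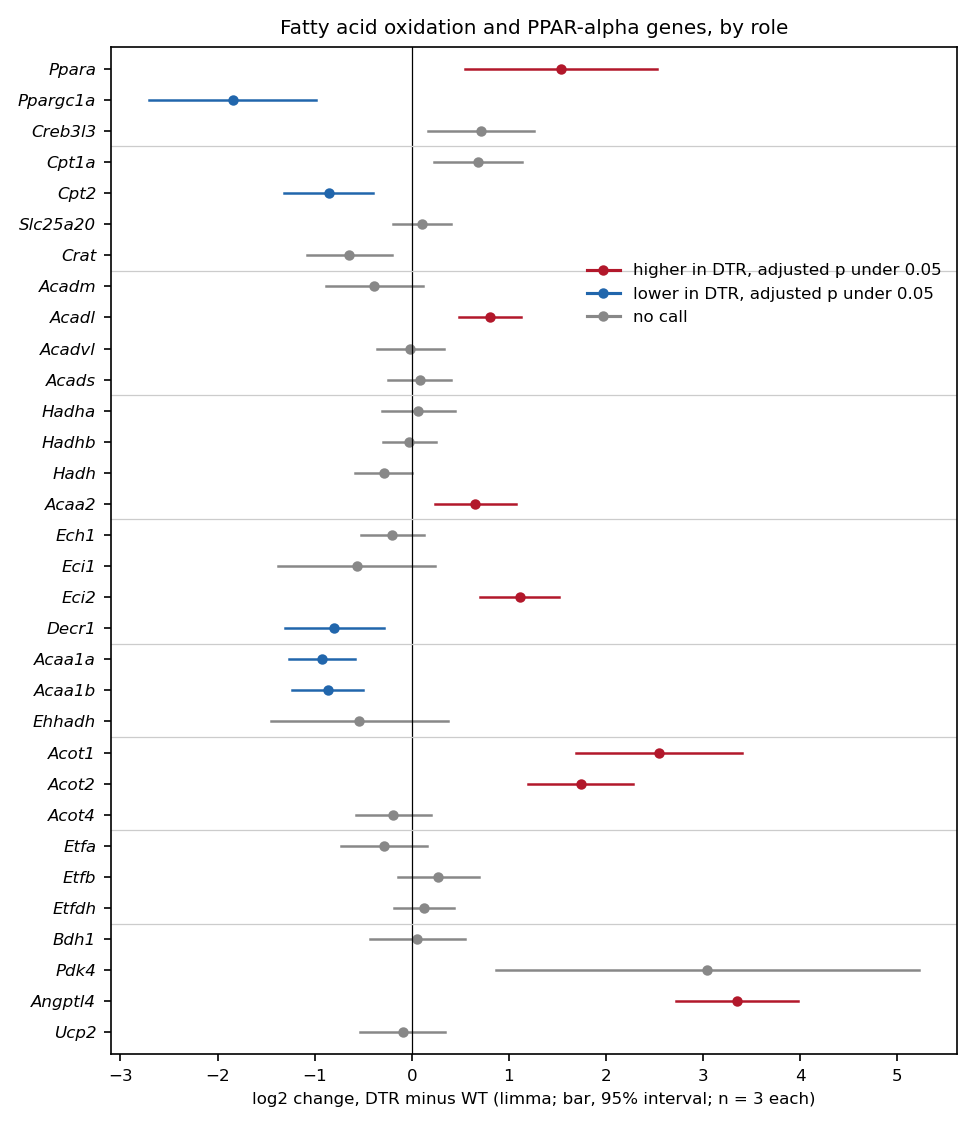
Log2 change of each member, DTR minus WT, grouped by role from the regulators at the top to the fuel switch genes at the bottom, with 95% intervals from limma. Red points are the 7 members higher in DTR, blue points the 5 lower members and grey points the 20 that did not pass, and higher and lower members sit side by side within several groups.

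The numbers of calls, over the members and over all tested genes, depended on the WT libraries, which varied little. Without WT replicate 1, 2 or 3 the higher members numbered 1, 1 and 2 and the lower members 0 each time, by limma. The calls that held were Angptl4 in each case and Acot1 without WT replicate 3. Over all tested genes the higher calls fell from 1485 to 76, 79 and 101. The lower calls fell from 1360 to 76, 78 and 106. With all libraries, 10 members were higher and 6 lower at an unadjusted p under 0.05, and voom, which models the reads themselves, called 9 higher and 6 lower. Over all tested genes voom called 1644 higher and 1723 lower, and the count at the unadjusted p is not given here. Without DTR replicate 1 the calls of Ppara and Acaa2 were lost. Without DTR replicate 2, the library with most fat cell transcripts, those of Ppara and Decr1 were lost, and 7 higher and 4 lower members were called. That fit called 1238 higher and 1167 lower of all tested genes. Without DTR replicate 3 the calls of Acaa2, Ppargc1a, Cpt2, Decr1 and Acaa1b were lost. Angptl4 passed under every alternative that was tried.

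**Figure D2:**
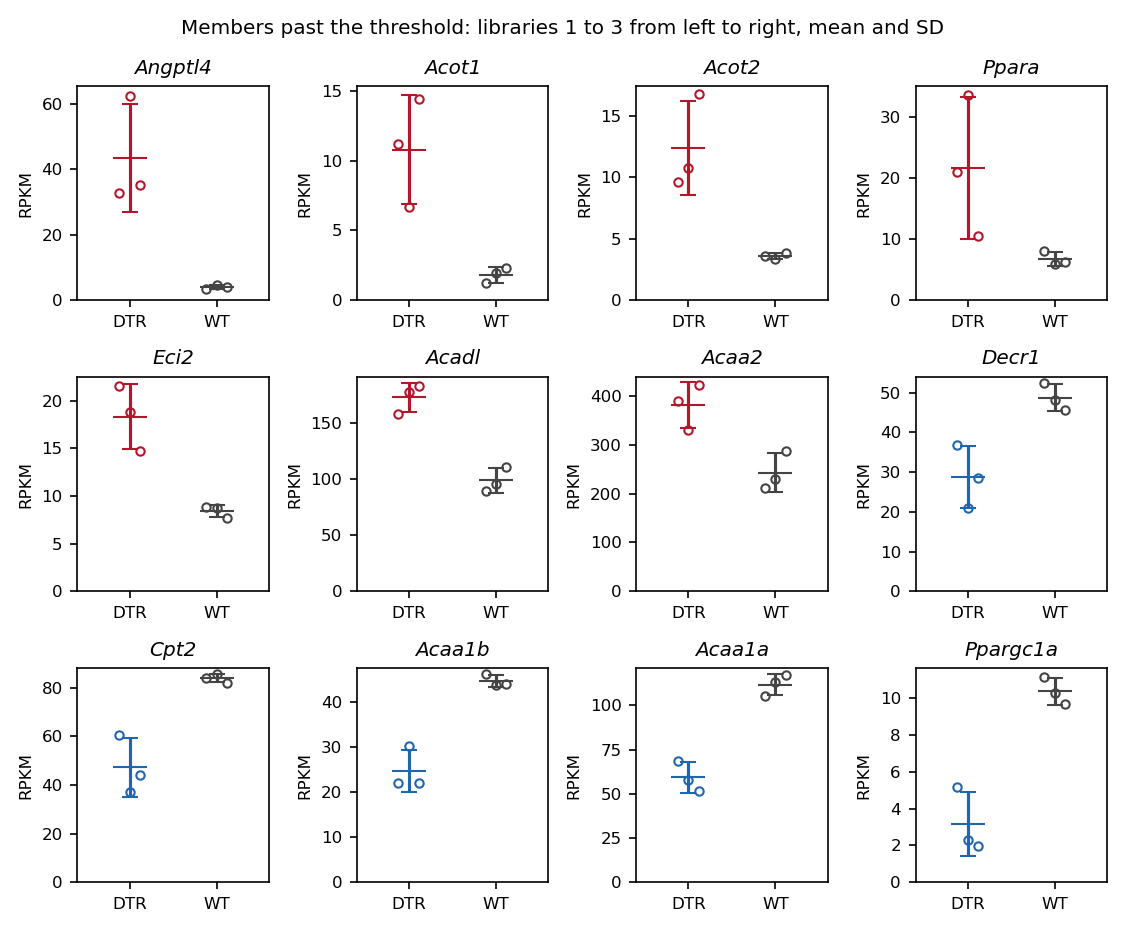
Levels in RPKM of the 12 members that passed the threshold, with each point a library (replicates 1 to 3 from left to right), the horizontal bar the mean and the vertical bar the SD of 3 libraries, and an axis of its own for each gene starting at 0. In all 12 panels the DTR libraries lie wholly above or wholly below the WT libraries. For several genes, among them Angptl4, Acot2, Ppara and Cpt2, the DTR libraries spread far more in RPKM than the WT libraries.

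The regulators changed in opposite directions. Ppara (ENSMUSG00000022383.13, mm10 chr15:85734983-85802819, plus strand), which encodes PPAR-alpha itself, had 21.0, 33.7 and 10.5 RPKM in the DTR libraries, against 8.06, 5.98 and 6.24 RPKM in the WT libraries. Every DTR library exceeded every WT library, and DTR replicate 2 was highest while DTR replicate 3 came closest to WT. Its mean was 3.21 times that of WT (log2 change 1.54, SE 0.41, limma adjusted p = 0.0476), but the call was lost without DTR replicate 2 (log2 change 1.15, limma adjusted p = 0.0689) and without DTR replicate 1 (1.49, limma adjusted p = 0.0722). Ppargc1a (ENSMUSG00000029167.13, mm10 chr5:51454250-51567726, minus strand), the coactivator PGC-1alpha that boosts mitochondrial gene expression and works with PPAR-alpha, had 5.16, 2.31 and 1.99 RPKM in the DTR libraries, against 11.1, 10.3 and 9.64 RPKM in the WT libraries. All DTR libraries lay below all WT libraries, with DTR replicate 1 the nearest to them. The log2 change was -1.85, SE 0.36, limma adjusted p = 0.0243, a WT mean 3.28 times the DTR mean. Creb3l3, a membrane-bound transcription factor of liver and intestine that acts beside PPAR-alpha, had 303, 534 and 391 RPKM in the DTR libraries, against 230.2, 229 and 274 RPKM in the WT libraries. Its DTR libraries were all above the WT libraries, and the difference missed the threshold (log2 change 0.71, SE 0.23, limma adjusted p = 0.072). Per length, Creb3l3 at 244 ± 25.4 RPKM and Acaa2 at 242 ± 39.8 RPKM (SD, n = 3 each) had the highest mean levels of the 32 members in WT.

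Of the carnitine shuttle genes, only Cpt2 passed the threshold, and it was lower in DTR. Cpt1a, the outer membrane enzyme that commits fatty acids to mitochondrial oxidation, had 31.0, 39.2 and 50.1 RPKM in the DTR libraries, against 25.1, 22.9 and 25.6 RPKM in the WT libraries. Each DTR library was above the WT range, and the log2 change was 0.68, SE 0.19, limma adjusted p = 0.0505, just short of the threshold. Cpt2 (ENSMUSG00000028607.16, mm10 chr4:107903981-107923610, minus strand), the inner membrane enzyme that regenerates the acyl-CoA, had 60.7, 37.1 and 44.2 RPKM in the DTR libraries, against 84.0, 85.6 and 82.1 RPKM in the WT libraries. The DTR libraries were all lower, with a log2 change of -0.86, SE 0.19, limma adjusted p = 0.0319. The level of Cpt2 divided by that of Cpt1a was 1.96, 0.947 and 0.883 in the DTR libraries, against 3.35, 3.73 and 3.21 in the WT libraries, with no overlap. Slc25a20, the carrier that swaps acylcarnitine for carnitine between them, had 22.0, 18.5 and 23.3 RPKM in the DTR libraries, against 19.8, 19.3 and 19.9 RPKM in the WT libraries. These ranges overlapped, and the 95% interval of the log2 change was -0.19 to 0.41 (limma adjusted p = 0.544). Crat, the carnitine acetyltransferase that buffers acetyl-CoA, had 31.0, 19.4 and 24.3 RPKM in the DTR libraries, against 37.4, 39.4 and 37.7 RPKM in the WT libraries. All DTR values were below the WT values, without passing the threshold (log2 change -0.64, SE 0.18, limma adjusted p = 0.0539).

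Among the acyl-CoA dehydrogenases, which carry out the first step of each round for different chain lengths, only the long-chain enzyme passed the threshold. Acadl (ENSMUSG00000026003.5, mm10 chr1:66830839-66863277, minus strand) had 158, 177 and 183 RPKM in the DTR libraries, against 89.5, 95.7 and 111 RPKM in the WT libraries. The DTR libraries were close to each other and all above WT, at a mean of 173 ± 13.0 RPKM in DTR and 98.6 ± 10.9 RPKM in WT (SD, n = 3 each). Its log2 change was 0.81, SE 0.13, limma adjusted p = 0.0171. Acadm, the medium-chain enzyme, had 37.9, 22.9 and 35.9 RPKM in the DTR libraries, against 39.3, 40.1 and 43.8 RPKM in the WT libraries. The DTR values lay just below the WT values, DTR replicate 2 lowest (log2 change -0.38, SE 0.21, limma adjusted p = 0.214). Acadl was 4.17, 7.74 and 5.10 times as abundant as Acadm per length in the DTR libraries, against 2.27, 2.39 and 2.53 times in the WT libraries. For Acadvl, the very long-chain enzyme, the log2 change was -0.01 (95% interval -0.36 to 0.33, limma adjusted p = 0.949), with 51.9, 40.2 and 55.2 RPKM in the DTR libraries, against 49.4, 48.9 and 49.1 RPKM in the WT libraries. Its WT libraries were almost identical and fell inside the DTR range, but 42.9% of its exonic bases overlap Dvl2 on the other strand, and the strand setting of the counting is not given. Acads, the short-chain enzyme, ranged over 28.9 to 37.4 RPKM in the DTR libraries and 31.4 to 33.1 RPKM in the WT libraries, with overlapping groups (log2 change 0.08, SE 0.13, limma adjusted p = 0.679).

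Of the 4 genes for the later steps of each round, only the thiolase passed the threshold. Acaa2 (ENSMUSG00000036880.10), the mitochondrial thiolase that releases acetyl-CoA, had 389, 329.6 and 422 RPKM in the DTR libraries, against 211, 229.7 and 287 RPKM in the WT libraries. Every DTR library was above every WT library, although WT replicate 3 came within a short distance of DTR replicate 2. The log2 change was 0.65, SE 0.17, limma adjusted p = 0.0469, near the threshold. Hadha and Hadhb encode the alpha and beta subunits of the mitochondrial trifunctional protein, which performs the last steps on long chains. Hadha had 58.5, 45.9 and 66.6 RPKM in the DTR libraries, against 53.6, 52.0 and 55.7 RPKM in the WT libraries. Hadhb had 35.4, 30.6 and 36.2 RPKM in the DTR libraries, against 34.1, 33.8 and 35.8 RPKM in the WT libraries. In both, DTR replicate 2 was the lowest library and the WT libraries lay within the DTR range. The 95% intervals of their log2 changes were -0.31 to 0.45 for Hadha and -0.30 to 0.25 for Hadhb (limma adjusted p = 0.771 and 0.885). Hadha stood at 1.65, 1.501 and 1.84 times the level of Hadhb in the DTR libraries, against 1.57, 1.54 and 1.55 times in the WT libraries. Of 50-base windows of the Hadhb transcripts, 19.7% also occur in other genes, chiefly the predicted gene Gm13910, so its level is less certain. Hadh, the dehydrogenase for shorter chains, had 141, 142 and 119 RPKM in the DTR libraries, against 159, 159.8 and 171 RPKM in the WT libraries. Its DTR values were all lower than its WT values without passing the threshold (log2 change -0.29, SE 0.12, limma adjusted p = 0.135).

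The pair of trifunctional protein genes is shown because its members start back to back, and neither passed the threshold. Hadha is on the minus strand and Hadhb on the plus strand, and only 85 bases separate their outermost bounds in GENCODE M21. In the RefSeq sequence of GRCm38.p6, chr5:30155143-30155267 on the plus strand, capitals mark those 85 bases. The flanks are the first bases of each gene by GENCODE. The RefSeq promoter window of Hadha, chr5:30154931-30155230, places its start further inside the gene. By that start the left flank lies before Hadha, and more than 85 bases separate the genes.
Hadha-Hadhb intergenic stretch: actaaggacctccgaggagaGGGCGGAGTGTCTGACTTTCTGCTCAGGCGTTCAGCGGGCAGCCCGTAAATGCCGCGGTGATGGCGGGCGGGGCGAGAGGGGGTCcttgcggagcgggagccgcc

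Fatty acids with double bonds need isomerases and a reductase, and these 4 genes went different ways. Eci2 (ENSMUSG00000021417.15, mm10 chr13:34977748-35027096, minus strand), an enoyl-CoA isomerase found in peroxisomes and mitochondria, had 21.6, 18.8 and 14.7 RPKM in the DTR libraries, against 8.84, 8.73 and 7.66 RPKM in the WT libraries. The DTR libraries were all well above WT, at 2.18 times the WT mean (log2 change 1.11, SE 0.17, limma adjusted p = 0.0154). Decr1 (ENSMUSG00000028223.8, mm10 chr4:15917240-15945507, minus strand), the mitochondrial 2,4-dienoyl-CoA reductase, had 36.8, 21.0 and 28.6 RPKM in the DTR libraries, against 52.3, 48.1 and 45.7 RPKM in the WT libraries. Every DTR value was below every WT value, and the log2 change was -0.80, SE 0.21, limma adjusted p = 0.047. That call was lost without DTR replicate 2 (log2 change -0.59, limma adjusted p = 0.0508) and without DTR replicate 3 (-0.81, limma adjusted p = 0.107). Eci1, the mitochondrial isomerase, had 19.7, 7.71 and 15.8 RPKM in the DTR libraries, against 20.8, 19.2 and 19.4 RPKM in the WT libraries. DTR replicate 2 alone lay far below the other 5 libraries (log2 change -0.56, SE 0.34, limma adjusted p = 0.251), and without it the log2 change was -0.17. Ech1, a dienoyl-CoA isomerase, ranged over 68.9 to 89.7 RPKM in the DTR libraries and 87.3 to 95.7 RPKM in the WT libraries (log2 change -0.20, SE 0.13, limma adjusted p = 0.302).

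Of the peroxisomal members, both thiolases were lower in DTR. Acaa1a (ENSMUSG00000036138.16, mm10 chr9:119339676-119350299, plus strand) and Acaa1b (ENSMUSG00000010651.4, mm10 chr9:119148023-119157093, minus strand) encode the peroxisomal thiolases. Acaa1a had 68.8, 57.9 and 51.5 RPKM in the DTR libraries, against 105, 113 and 117 RPKM in the WT libraries. Acaa1b had 22.1, 30.1 and 22.0 RPKM in the DTR libraries, against 46.1, 43.8 and 44.0 RPKM in the WT libraries. The groups were clearly separate for both genes. The log2 change was -0.92, SE 0.14, limma adjusted p = 0.0153 for Acaa1a. It was -0.87, SE 0.15, limma adjusted p = 0.0197 for Acaa1b. Their coding sequences are 96.5% identical, and 12.4% of the 50-base windows of Acaa1a and 30.5% of those of Acaa1b are shared between them, so how reads were split between the pair is uncertain. The level of Acaa1b divided by that of Acaa1a was 0.321, 0.520 and 0.428 in the DTR libraries, against 0.438, 0.387 and 0.375 in the WT libraries. Ehhadh, the peroxisomal bifunctional enzyme, had 85.1, 35.9 and 96.3 RPKM in the DTR libraries, against 87.9, 88.6 and 116 RPKM in the WT libraries. DTR replicate 2 was far below the other libraries, which overlapped (log2 change -0.54, SE 0.38, limma adjusted p = 0.321). Without DTR replicate 2 the log2 change of Ehhadh was -0.10.

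Some other peroxisomal genes were lower in DTR as well. Of 20 genes that are not among the 32, 17 were tested and 6 were lower in DTR (35.3%, beside 8.74% of all tested genes). The median log2 change of the 17 was -0.51. None was higher by limma, 1 was at an unadjusted p under 0.05 and none by voom. Cat, the catalase that removes the hydrogen peroxide of peroxisomal oxidation, had 80.6, 58.5 and 66.3 RPKM in the DTR libraries, against 148, 147 and 153 RPKM in the WT libraries (log2 change -1.14, SE 0.15, limma adjusted p = 0.0103). Phyh, which starts the breakdown of phytanic acid, had 201, 183 and 189 RPKM in the DTR libraries, against 357, 347 and 324 RPKM in the WT libraries (log2 change -0.84, SE 0.12, limma adjusted p = 0.0129). Acox3, an oxidase for branched chains, had 4.91, 3.09 and 3.34 RPKM in the DTR libraries, against 9.14, 9.54 and 10.9 RPKM in the WT libraries (log2 change -1.41, SE 0.21, limma adjusted p = 0.014). In each of the 3 genes the highest DTR library was below the lowest WT library. Over the 20 genes the summed level was 947, 762 and 844 RPKM in the DTR libraries, against 1361, 1358 and 1440 RPKM in the WT libraries. Without WT replicate 1, 2 or 3 none of the 6 passed. Of the 8 enterocyte markers, Vil1, Sis and Anpep of the brush border passed and were lower in the same libraries (log2 changes -0.85, -1.25 and -1.66). The other markers did not pass and had log2 changes in both directions, with Fabp2 at -0.86, Krt20 at -0.07, Apoa4 at 0.12, Alpi at 0.20 and Apoa1 at 1.08, and the part of enterocyte content in the peroxisomal values was not tested.

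Acyl-CoA thioesterases release free fatty acids from CoA, and the cytosolic Acot1 and the mitochondrial Acot2 rose while the peroxisomal Acot4 did not pass. Acot1 (ENSMUSG00000072949.6, mm10 chr12:84009490-84018371, plus strand) had 11.2, 6.67 and 14.4 RPKM in the DTR libraries, against 1.21, 1.95 and 2.29 RPKM in the WT libraries. Acot2 (ENSMUSG00000021226.7, mm10 chr12:83987861-83993873, plus strand) had 9.64, 10.8 and 16.7 RPKM in the DTR libraries, against 3.58, 3.33 and 3.88 RPKM in the WT libraries. Both were higher in each DTR library than in any WT library, with DTR replicate 3 the highest for both. Acot1 averaged 10.8 ± 3.90 RPKM in DTR and 1.82 ± 0.551 RPKM in WT (SD, n = 3 each), with a log2 change of 2.55, SE 0.36, limma adjusted p = 0.0129. Acot2 averaged 12.4 ± 3.81 RPKM in DTR and 3.60 ± 0.273 RPKM in WT, with a log2 change of 1.74, SE 0.23, limma adjusted p = 0.0109. Acot4 had 6.55, 6.23 and 5.12 RPKM in the DTR libraries, against 7.51, 6.997 and 5.87 RPKM in the WT libraries. Its groups overlapped, and the 95% interval of the log2 change was -0.58 to 0.20 (limma adjusted p = 0.417). The order of the genes in RPKM was therefore different: Acot4 stood at 0.679, 0.578 and 0.306 times the level of Acot2 in the DTR libraries, against 2.10, 2.10 and 1.51 times in the WT libraries. Acot1 stood at 1.16, 0.619 and 0.863 times the level of Acot2 in the DTR libraries, against 0.338, 0.584 and 0.590 times in the WT libraries, and DTR replicate 2 was only just above the WT range.

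The 3 thioesterase genes are neighbours on chromosome 12, with 15616 bases between Acot2 and Acot1. Their coding sequences show how far reads can be told apart. Over aligned coding bases, Acot1 and Acot2 were 95.3% identical, Acot1 and Acot4 74.6%, and Acot2 and Acot4 75.1%. Of 50-base windows, 13.6% of Acot1 and 24.5% of Acot2 occur in both genes, so reads may have been split or dropped between the pair, whereas 4.53% of the Acot4 windows occur in another gene. The aligned stretches below start at coding base 1 of Acot1, 124 of Acot2 and 1 of Acot4 and run for 60 bases of the GENCODE M21 transcripts on mm10. Capitals mark bases that differ from Acot1, which number 10 in Acot2 and 8 in Acot4. The stretch is the first that aligned without a gap in all 3 genes, and it does not represent the whole. Over all aligned coding bases Acot1 was closer to Acot2 (95.3%) than to Acot4 (74.6%).
Acot1: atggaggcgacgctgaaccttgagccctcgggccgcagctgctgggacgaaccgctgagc
Acot2: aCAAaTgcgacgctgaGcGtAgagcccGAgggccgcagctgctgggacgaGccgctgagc
Acot4: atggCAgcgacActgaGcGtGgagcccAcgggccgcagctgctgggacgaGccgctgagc

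The electron transfer flavoprotein takes electrons from the acyl-CoA dehydrogenases and hands them to the respiratory chain, and none of its 3 genes passed the threshold by limma, at an unadjusted p under 0.05 or by voom. Etfa, the alpha subunit, had 97.7, 66.7 and 97.7 RPKM in the DTR libraries, against 98.8 to 116 RPKM in the WT libraries (log2 change -0.28, SE 0.18, limma adjusted p = 0.286). DTR replicate 2 was lowest, and the other DTR libraries lay just under the WT range. Etfb, the beta subunit, ranged over 10.2 to 14.3 RPKM in the DTR libraries and 8.54 to 11.1 RPKM in the WT libraries (log2 change 0.28, SE 0.17, limma adjusted p = 0.275). Of the exonic bases of Etfb, 53.0% overlap the predicted gene Gm45233 on the same strand, so its level is uncertain. Etfdh, the dehydrogenase that passes the electrons to ubiquinone, ranged over 16.4 to 20.7 RPKM in the DTR libraries and 17.1 to 17.9 RPKM in the WT libraries (log2 change 0.13, SE 0.13, limma adjusted p = 0.49).

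Angptl4 and Pdk4, targets of PPAR-alpha that shift tissues between fuels, had the largest log2 changes of the 32 members. Angptl4 (ENSMUSG00000002289.16, mm10 chr17:33773750-33781830, minus strand), a secreted inhibitor of lipoprotein lipase, had 32.8, 62.5 and 35.3 RPKM in the DTR libraries, against 3.59, 4.57 and 4.15 RPKM in the WT libraries. The lowest DTR library was several times the highest WT library. Its mean was 10.6 times that of WT, with a log2 change of 3.35, SE 0.26, limma adjusted p = 0.00476, and over all alternatives its limma adjusted p was 0.00181 to 0.0336. Pdk4 (mm10 chr6:5483351-5496309, minus strand), a kinase that shuts off pyruvate dehydrogenase and so spares glucose, had 40.0, 513 and 60.9 RPKM in the DTR libraries, against 12.9, 15.4 and 11.2 RPKM in the WT libraries. DTR replicate 2 was far above every other library, but the other DTR libraries were also above all WT libraries. The log2 change was 3.04, SE 0.91, limma adjusted p = 0.0607 with a 95% interval of 0.87 to 5.22, so Pdk4 did not pass. Without DTR replicate 2 the log2 change was 1.92 (limma adjusted p = 0.0137), smaller but past the threshold, and without DTR replicate 1 it was 3.76 (limma adjusted p = 0.0275). Bdh1, which interconverts ketone bodies, had 31.9, 21.3 and 35.5 RPKM in the DTR libraries, against 27.9, 29.2 and 26.4 RPKM in the WT libraries. Its groups overlapped (log2 change 0.06, SE 0.20, limma adjusted p = 0.859, 95% interval -0.43 to 0.54). Ucp2, an inner membrane carrier linked to fatty acid use, ranged over 111 to 142 RPKM in the DTR libraries and 108 to 155 RPKM in the WT libraries, with a 95% interval of -0.53 to 0.35 for its log2 change (limma adjusted p = 0.725).

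DTR replicate 2, where Pdk4 and Angptl4 were highest, was also the library with the most fat cell transcripts. The 8 adipocyte markers summed to 123, 523 and 217 RPKM in the DTR libraries, against 121, 93.8 and 81.3 RPKM in the WT libraries, most of it from Cidec at 112, 352 and 203 RPKM in DTR and 92.5, 88.8 and 77.7 RPKM in WT. Of these 8 markers 6 were tested and none passed by limma, 2 were higher at an unadjusted p under 0.05 and none by voom, and Lep was at most 0.252 RPKM in any library. In DTR replicates 1 and 3, Adipoq was at 0.180 and 0.222 RPKM, similar to WT replicates 2 and 3, but 2 others of the list lay above the WT range there without passing. Fabp4, a fatty acid binding protein of fat cells, had 7.32, 63.0 and 12.4 RPKM in the DTR libraries, against 5.39, 3.60 and 1.90 RPKM in the WT libraries. Fabp4 and Cidec were thus above all WT libraries in each DTR library, as were Angptl4 and Pdk4. Cidec did not follow Adipoq, with 203 RPKM in DTR replicate 3, where Adipoq was at 0.222 RPKM. Whether the Cidec transcripts, and so most of the sum, came from fat cells was not tested. The part of fat cell content in the values of Pdk4 and Angptl4 was not tested either. Without DTR replicate 2 and WT replicate 1, the libraries with most Adipoq and Cfd, the log2 change of Angptl4 was 2.97 (limma adjusted p = 0.0291), that of Acot1 was 2.59 (limma adjusted p = 0.0395) and that of Pdk4 was 1.91 (limma adjusted p = 0.0714). Genes known to be induced by glucocorticoids moved with Pdk4 and Angptl4. Their 6 genes summed to 433, 919 and 424 RPKM in the DTR libraries, against 59.4, 81.95 and 53.6 RPKM in the WT libraries. By limma 5 of the 6 were higher in DTR (83.3%, beside 9.54% of all tested genes). The part of these 6 genes in the values of Pdk4 and Angptl4 was not tested.

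**Figure D3:**
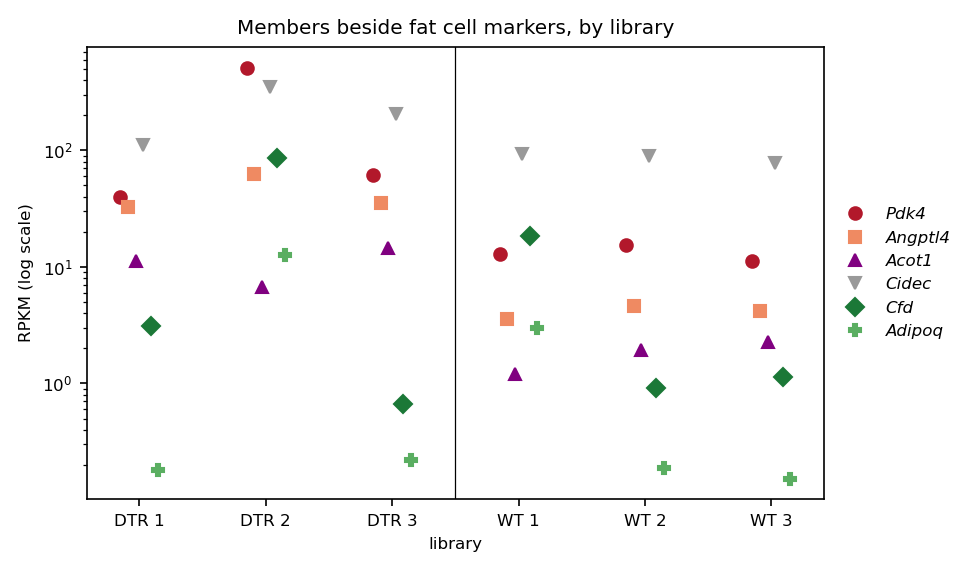
RPKM on a log scale in each library of Pdk4, Angptl4 and Acot1 (members) and of Cidec, Cfd and Adipoq (fat cell markers), DTR libraries on the left and WT libraries on the right. Cfd and Adipoq are high in DTR replicate 2 and, to a lesser extent, in WT replicate 1, whereas Pdk4 and Angptl4 are above all WT libraries in each DTR library.

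The members' spread was wider in DTR than in WT. Of the 32 members 29 had a wider range across the DTR libraries, as did 81.7% of all tested genes. The median range was 0.55 on the log2 scale over the DTR libraries and 0.18 over the WT libraries. DTR replicate 2 was the lowest DTR library for 18 of 32 members and for 14 of the 20 members that did not pass. Against the WT mean, the median member stood at a log2 difference of 0.10, -0.19 and 0.12 in the DTR libraries. The highest of these differences in DTR replicate 2 was that of Pdk4 at 5.30, and the lowest was that of Ppargc1a at -2.16.

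**Figure D4:**
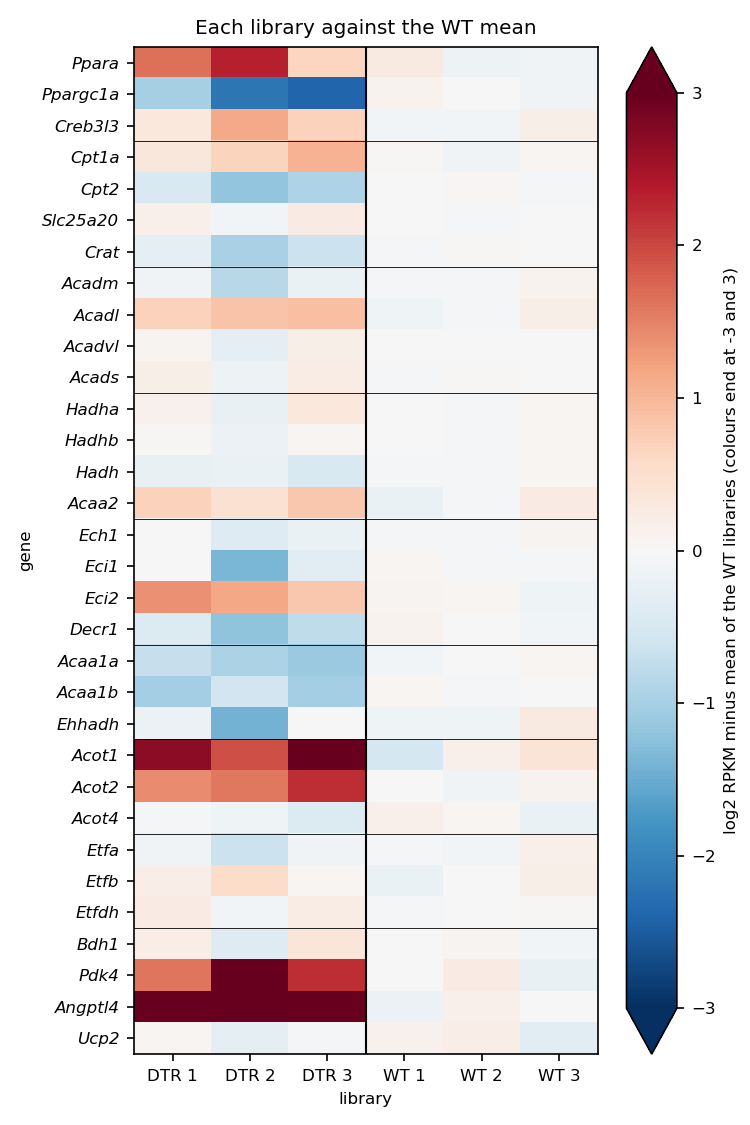
Log2 RPKM of each member in each library minus the mean of the WT libraries, with DTR libraries left of the line and members in the same order of roles; colours end at -3 and 3. Rows such as Angptl4, Acot1 and Acot2 are red in all DTR libraries, Acaa1a and Ppargc1a are blue in all of them, and DTR replicate 2 is the bluest DTR column for Eci1 and Ehhadh.

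Further genes of the pathway, 95 in 7 lists, were set beside the members. Of 86 tested, 8 were higher (9.30%) and 9 lower (10.5%) in DTR, near the shares over all tested genes. Without WT replicate 1, 2 or 3 the higher genes numbered 0, 1 and 1 and the lower genes 0 each time, and without DTR replicate 3 there were 2 higher genes. Without DTR replicate 1 the counts were 17 higher and 16 lower, and without DTR replicate 2 there were 15 lower genes. Over all tested genes the fit without DTR replicate 1 called 2861 higher and 2744 lower, and that without DTR replicate 2 called 1167 lower. Among 15 tested genes of other mitochondrial oxidation 2 were higher (13.3%, beside 9.54% of all tested genes). They were Echs1, the hydratase for shorter chains (log2 change 0.58, SE 0.12, limma adjusted p = 0.0256), and Acacb, which makes the malonyl-CoA that inhibits Cpt1 (log2 change 1.65, SE 0.39, limma adjusted p = 0.0355). Echs1 lost its call without DTR replicate 3 (limma adjusted p = 0.0589), and Acacb without DTR replicate 2 or 3 (limma adjusted p = 0.0594 and 0.0914), while with a pseudocount of 1 the log2 change of Acacb was 0.65. None of these 15 was lower by limma, while 1 was at an unadjusted p under 0.05 and 1 by voom.

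Other known targets of PPAR-alpha did not pass. Of 13 tested, none was called by limma in either direction, 2 were higher and 3 lower at an unadjusted p under 0.05, and voom called 1 in each direction. Plin2, a lipid droplet coat protein, had 39.9, 77.5 and 62.7 RPKM in the DTR libraries, against 32.5, 33.6 and 32.5 RPKM in the WT libraries (log2 change 0.82, SE 0.24, limma adjusted p = 0.0598). Hilpda, a lipid droplet protein that restrains lipolysis, had 2.43, 9.71 and 7.76 RPKM in the DTR libraries, against 1.47, 1.78 and 1.51 RPKM in the WT libraries (log2 change 1.84, SE 0.51, limma adjusted p = 0.0508). Both lay above the WT range in every DTR library. Fabp1, the abundant fatty acid binding protein of liver and intestine, had 4016, 3423 and 2872 RPKM in the DTR libraries, against 4815, 5180 and 6261 RPKM in the WT libraries (log2 change -0.66, SE 0.24, limma adjusted p = 0.0946). All its DTR values were below its WT values. Of 17 tested receptor partners and coregulators 2 were higher (11.8%) and 1 was lower (5.88%), near the 9.54% and 8.74% of all tested genes. Among the called partners and coregulators, Lpin1, a coactivator of PPAR-alpha and a phosphatidate phosphatase, was higher (log2 change 1.43, SE 0.35, limma adjusted p = 0.0393). The call of Lpin1 was lost with a pseudocount of 1 (log2 change 0.56, limma adjusted p = 0.0509) and without DTR replicate 2 or 3 (limma adjusted p = 0.0521 and 0.0838). Ppard, the receptor PPAR-delta, was lower (log2 change -0.88, SE 0.15, limma adjusted p = 0.019).

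The lists around the switch at pyruvate dehydrogenase and around lipolysis were short, so a single gene moves their shares far. Of 10 pyruvate dehydrogenase genes 1 was higher (10%) and 2 were lower (20%), beside 9.54% and 8.74% of all tested genes. Pdp1, a phosphatase that reactivates the complex, had 2.51, 8.91 and 9.93 RPKM in the DTR libraries, against 0.975, 0.646 and 1.11 RPKM in the WT libraries (log2 change 2.77, SE 0.55, limma adjusted p = 0.0258). Its log2 change was 1.93 with a pseudocount of 1, and its call was lost without DTR replicate 2 or 3 (limma adjusted p = 0.0531 and 0.0706). Pdp2, another such phosphatase, and Pdk3, another kinase, were lower (log2 changes -1.34, SE 0.21, limma adjusted p = 0.0158 and -0.76, SE 0.15, limma adjusted p = 0.0262). Of 8 tested lipases and lipase regulators 2 were higher (25%) and none lower by limma or voom, with 1 lower at an unadjusted p under 0.05. Gpihbp1, the capillary anchor of lipoprotein lipase, and Lipa, the lysosomal acid lipase, were higher (log2 changes 2.79, SE 0.36, limma adjusted p = 0.0106 and 0.79, SE 0.11, limma adjusted p = 0.0119). Gpihbp1 had at most 2.06 RPKM in any library, and its log2 change depended on the pseudocount, at 1.08 with a pseudocount of 1, where it still passed (limma adjusted p = 0.00817).

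**Figure D5:**
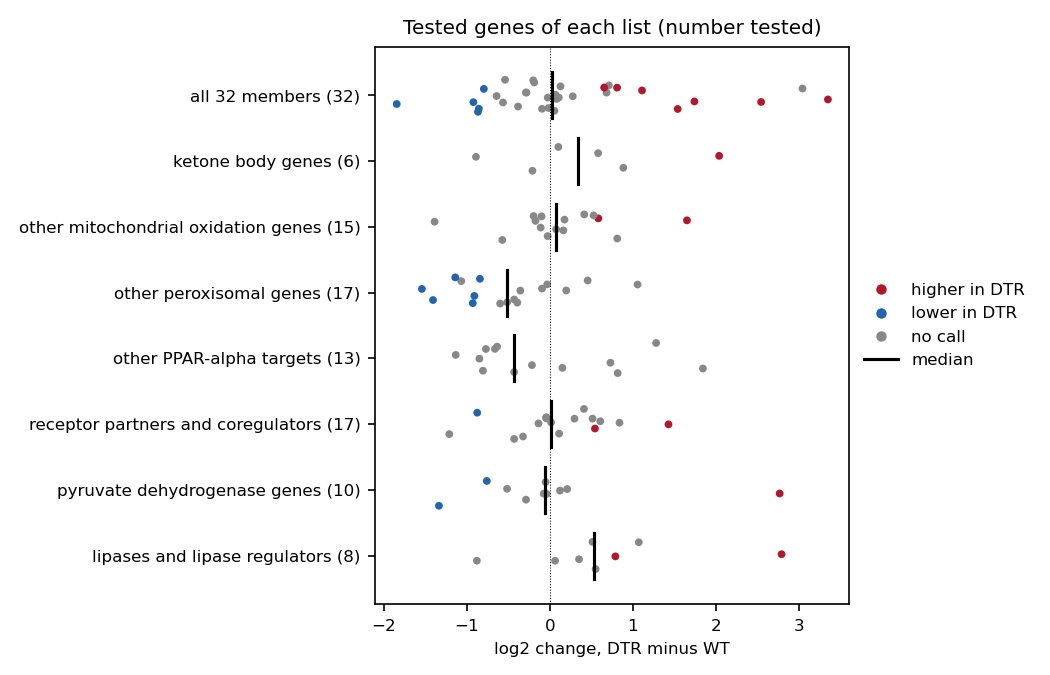
Log2 change, DTR minus WT, of every tested gene of the 32 members and of the 7 further lists, with the number tested in brackets, red for higher, blue for lower, grey for no call and a black bar at the median. The peroxisomal list has its median at -0.51 with 6 lower genes (35.3%, beside 8.74% of all tested genes) and no higher genes. Of the members 16 lie above 0 and 16 below, and they reach further on the positive side.

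PPAR-alpha with RXR binds direct repeats of a short motif with a single base between the copies. The letters AGGNCANAGGNCA were searched on both strands in RefSeq promoter windows of GRCm38.p6, from 250 bases before to 50 after each gene's start. Angptl4, Acaa2, Crat and Decr1 had no window and were not searched. Of 28 members with a window none held a match, and of 71 further pathway genes 1 did, beside 0.451% of 27025 genes. At such a share 28 genes would most often hold no match, so the absence says nothing about the members. The element TCAAGGTCA, bound by oestrogen-related receptors that work with Ppargc1a, was in none of the 28 members and none of the 71 genes, beside 0.466% of all genes. That result has the same limit. The element ends in AGGTCA, a copy that also meets the repeated motif of the search above, so matches to the searches can overlap. The match to the direct repeat was in Fabp1 on the minus strand, 67 bases before the start, and it is shown because it is the only one among these genes. In the stretch below, chr6:71199787-71199849 on the plus strand, capitals mark the match.
Fabp1 promoter stretch: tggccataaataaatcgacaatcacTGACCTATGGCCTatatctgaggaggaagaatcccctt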

How the data were processed

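Log2 RPKM for 55487 genes in 6 libraries were deposited by the authors, with the reads in genes and a normalization factor, a ratio that rescales that total, for each library. The submitters' processing notes name STAR, featureCounts, Subread, edgeR, FastQC and MultiQC, and the build mm10. Tool versions, the annotation release and the strand setting were not given in the sources used here, and reads of overlapping or antisense genes may therefore be mixed. After removal of the log and of a prior count (0.25), the deposited values gave whole reads in 100% of cases (tolerance 1e-06), and the RPKM printed here comes from those reads. The description of the sample with title WT2 reads WT1, and columns were matched by title. Since the labels do not state that every library comes from its own mouse, p-values reflect spread between these samples that may be technical. Replicates within a group differed by a chi-square of 69.1 to 396 per gene, so none was a repeat of another.

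Of all genes, 15563 had a mean log2 RPKM above -2 and were compared by a two-sided limma test (limma 3.58.1, R 4.3.3) that allowed for a trend of variance with level, with Benjamini-Hochberg adjustment and a threshold of 0.05. The test was tried on simulated data in which both groups had the spread of the WT libraries. The wider spread of the DTR libraries was therefore not covered, and no conclusion is drawn from that trial. Tables were built with Python 3.11.15, pandas 2.3.3 and SciPy 1.17.1. Positions come from GENCODE M21, promoter sequences from RefSeq (GRCm38.p6). The 32 genes, the further lists and the tests were chosen with earlier results of these data known. Every gene of the 32 is named. Of each further pathway list at most the 3 genes with the smallest p in each direction are named, and markers are given as sums, with single markers where a result turns on them. Some genes that this rule selects are not reported here. Acot5 and Acot6 were named after their values were seen. Other settings tried were a pseudocount of 0.1 or of 1, a filter at 0 or none, quantile normalization, median centring, array weights, no variance trend, a replicate block, limma's voom on the recovered reads, and fits without single libraries.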

Additional observations from a re-analysis of the deposited data

How the results depend on the processing

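Besides the counts without single libraries given above, 16 alternatives and 2 chosen after seeing the data moved calls as follows. All 7 higher and 5 lower members stayed in the count with pseudocounts of 0.1 and 1, a filter at 0, array weights and voom. Over leave-one-out fits the higher members numbered 1 to 8 and the lower members 0 to 6, the other lower peroxisomal genes 0 to 8, the higher and lower pathway genes 0 to 17 and 0 to 16, and all higher and lower genes 76 to 2861 and 76 to 2744. Array weights gave 15 higher and 14 lower pathway genes and 2548 higher and 2314 lower genes in all. The replicate block gave 3 lower members (Acaa1a, Acaa1b and Ppargc1a), 5 higher members, 4 higher pathway genes, and 544 higher and 617 lower genes in all. Same-numbered libraries showed no clear pairing, and the correlations of their deviations were -0.01, -0.0024 and 0.16. With 3 libraries a group these values cannot exclude a pairing. Without DTR replicate 2 and WT replicate 1 (chosen after seeing the data) there were 2 higher members (Acot1 and Angptl4), 0 lower members, 1 lower gene among the other peroxisomal genes, 1 higher and 1 lower pathway gene, and 58 higher and 94 lower genes in all; limma with 2 libraries a group has less power by construction. Without DTR replicate 1 and WT replicate 2 (also chosen after seeing the data) there were 5 higher and 4 lower members. Changes of sign occurred in members without a call, and the cause was not tested. With array weights the log2 change of Acadvl was 0.0611 and that of Hadhb 0.0224. Over the fits without a library it was -0.1052 to 0.1264 for Acadvl, -0.0530 to 0.2154 for Hadha, -0.0720 to 0.0505 for Hadhb, -0.0942 to 0.2781 for Bdh1 and -0.2574 to 0.0727 for Ucp2. Ppara, Acaa2 and Decr1 lost their calls in 11, 10 and 10 of 18 alternatives, and Cpt1a, Crat, Pdk4 and Creb3l3 gained one in 8, 5, 4 and 3. Scaling alternatives moved the median of all genes by less than 0.1 on the log2 scale.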

Other observations

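Within the thioesterase cluster of chromosome 12, Acot5, which encodes a peroxisomal thioesterase for medium chains, had 58, 375 and 105 reads in the DTR libraries, against 0 reads in each WT library. That is 0.592, 4.01 and 1.11 RPKM in the DTR libraries, at least 67.2-fold higher than WT against a floor of 3 reads per WT library, which covers counting error only. DTR replicate 2 carried much of that bound, which was at least 30.1-fold without it. Acot5 lay below the expression filter, and its two-sided exact permutation p was 0.1, the smallest that 3 against 3 libraries can give. Acot5 was highest in DTR replicate 2, whereas Acot1 and Acot2 were highest in DTR replicate 3. Acot6, a further peroxisomal neighbour, had 1.32, 0.697 and 0.527 RPKM in the DTR libraries, against 0.384, 0.380 and 0.368 RPKM in the WT libraries (log2 change 1.06, limma adjusted p = 0.0929). Part of the Acot1 transcript shares 50-base windows with Acot5, so a small share of these reads may have been moved between the genes by the counting, which was not tested.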
